A study of Mus musculus with 3 samples.

Results

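Among 15324 autosomal Runx3 peaks of resting mouse NK cells (NKC), 631 (4.12%, 95% Wilson interval 3.81 to 4.44%) shared 0 bp with every H3K4me1 region of the same cells. These unmarked peaks were chosen by the measured overlap itself, so their distances to H3K4me1 are given as a description, and they were compared with the 14693 autosomal peaks that overlapped a region by at least 1 bp. A further 41 peaks on chromosome X also lacked overlap and were left out. Of the 631 peaks, 248 had their midpoint under 1 kb from an annotated transcription start site (TSS) and are called proximal, 89 lay 1 to 5 kb away, and 294 lay over 5 kb away and are called distal. On a measure that the choice did not use, distal members held a CTCF sequence at their centre more often than distal overlapping peaks (11.2% against 0.799%). They less often had another Runx3 peak nearby (34 of 294 against 3316 of 6634 within 10 kb). Runx3 peaks that share an H3K4me1 region all overlap it, so this difference is not independent of the choice.

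The cells were spleen NKC of ICR mice, taken without culture or activation and fixed in 1% formaldehyde, and their chromatin was sheared to fragments of about 300 bp. Chromatin was precipitated with polyclonal anti-Runx3, monoclonal anti-H3K4me1 or non-immune rabbit serum, with 1 sample each. Per the labels the cells were sorted on NKp46, whereas the study's methods name DX5. Each antibody gave a single list of coordinates without scores, so there is no replicate error, and the intervals below cover counting error over peaks, which are not replicates of a condition.

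The lists were checked against cell type markers. Of 12 NK cell markers, 11 had an H3K4me1 region and 11 a Runx3 peak over the gene body. Over 6 T cell markers there were 3 genes with H3K4me1 and 0 with Runx3, and Cd4, Cd8a and Cd8b1 had neither. Of 5 B cell and 5 myeloid markers, 3 each had H3K4me1 and 1 each had a Runx3 peak. The unmarked share ranged from 2.78% to 5.47% over the 19 autosomes.

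Runx3 is a transcription factor that binds DNA through its Runt domain together with its partner CBFbeta, and in NKC and CD8 T cells it takes part in the control of effector genes. H3K4me1, the form of histone H3 monomethylated at lysine K4, marks enhancers and the shoulders of active promoters. Nucleosomes next to an active TSS usually carry the form trimethylated at the same lysine. CTCF is a zinc finger protein that binds a long DNA sequence at insulators and at the anchors of chromatin loops.

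Central windows of 8 unmarked peaks are shown because they hold the sequence patterns described further on. Each is the 200 bases around the midpoint on the plus strand of mm9, written 5′ to 3′, with matches to the RUNX consensus or to the CTCF consensus in capitals. The RUNX consensus has 4 variants, searched on both strands. In the first pair, TGTGGT was counted along with the variant TGTGGC, and in the second pair TGCGGT was counted along with the variant TGCGGC. None touches an annotated exon. The first, at chr5:33383730-33383929, lay 19390 bp from the nearest TSS, that of Ywhah, and held 11 RUNX matches, a number that the peak in Hs6st1 shared and no other unmarked peak exceeded. The second, at chr3:97959994-97960193 near Adam30, held 8. The third, at chr11:33977610-33977809 by Lcp2, which encodes the adaptor SLP-76 of immune receptor signalling, held 4. The fourth, at chr16:10979654-10979853 in an intron of Litaf, a regulator of inflammatory gene expression, also held 4. The fifth, at chr9:118387092-118387291, lay beside the TSS of Eomes, a T-box factor of NKC development, and held 1 match. The last 3, at chr10:125432039-125432238 in Lrig3, chr1:137567068-137567267 in Nav1 and chr16:17812379-17812578 near Scarf2, each held a CTCF match and were picked after their values were seen.
Ywhah: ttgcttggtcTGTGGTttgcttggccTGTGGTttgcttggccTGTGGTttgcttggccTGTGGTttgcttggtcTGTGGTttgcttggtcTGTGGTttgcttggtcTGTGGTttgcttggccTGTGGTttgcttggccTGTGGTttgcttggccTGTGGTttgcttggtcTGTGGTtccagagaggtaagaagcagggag
Adam30: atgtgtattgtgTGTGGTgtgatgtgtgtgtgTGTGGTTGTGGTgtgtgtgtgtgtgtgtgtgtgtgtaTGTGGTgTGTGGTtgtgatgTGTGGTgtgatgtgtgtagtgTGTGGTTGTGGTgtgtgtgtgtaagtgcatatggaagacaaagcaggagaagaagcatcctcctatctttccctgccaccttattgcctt
Lcp2: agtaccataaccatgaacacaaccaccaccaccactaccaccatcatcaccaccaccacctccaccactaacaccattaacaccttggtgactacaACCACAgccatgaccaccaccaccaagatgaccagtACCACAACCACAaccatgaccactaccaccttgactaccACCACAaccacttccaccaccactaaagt
Litaf: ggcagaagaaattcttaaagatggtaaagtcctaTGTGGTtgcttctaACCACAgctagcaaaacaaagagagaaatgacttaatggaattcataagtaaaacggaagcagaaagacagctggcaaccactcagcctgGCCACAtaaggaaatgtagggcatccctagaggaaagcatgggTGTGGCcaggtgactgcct
Eomes: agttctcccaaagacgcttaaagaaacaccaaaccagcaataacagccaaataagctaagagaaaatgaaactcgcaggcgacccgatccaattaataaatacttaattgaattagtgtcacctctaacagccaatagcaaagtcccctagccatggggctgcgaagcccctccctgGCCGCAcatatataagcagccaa
Lrig3: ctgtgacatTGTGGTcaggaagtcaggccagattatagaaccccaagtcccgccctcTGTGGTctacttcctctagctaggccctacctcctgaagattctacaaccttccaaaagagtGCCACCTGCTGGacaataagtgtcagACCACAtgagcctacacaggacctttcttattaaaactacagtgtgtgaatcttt
Nav1: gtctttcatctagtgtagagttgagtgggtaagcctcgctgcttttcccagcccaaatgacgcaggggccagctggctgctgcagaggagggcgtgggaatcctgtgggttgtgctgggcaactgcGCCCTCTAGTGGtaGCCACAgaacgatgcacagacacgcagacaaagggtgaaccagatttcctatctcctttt
Scarf2: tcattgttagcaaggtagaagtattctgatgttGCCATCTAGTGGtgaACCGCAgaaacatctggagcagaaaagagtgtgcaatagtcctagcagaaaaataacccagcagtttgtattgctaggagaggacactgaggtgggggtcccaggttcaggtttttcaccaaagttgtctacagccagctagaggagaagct

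In the Ywhah window the 11 TGTGGT matches followed each other at a fixed spacing of 16 bp. In the Adam30 window the 8 TGTGGT matches were 6 to 31 bp apart. The 4 Lcp2 matches were all TGTGGT, read on the minus strand, and 2 of the 4 Litaf matches had those letters. The Ywhah, Adam30 and Lcp2 windows are repetitive sequence in which such letters recur, so their matches are no count of separate binding sites. In the Nav1 and Scarf2 windows the RUNX match lay 2 and 3 bp from the CTCF match, and in the Lrig3 window the nearest of 3 RUNX matches was 14 bp away.

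Unmarked peaks were first placed relative to the regions that they missed. The distance from peak edge to the nearest H3K4me1 region had a median of 3394 bp (interval 2106 to 4447 bp), with quartiles of 253 and 18816 bp and a range of 0 to 3232555 bp. It rose with distance from a TSS, from a median of 204 bp under 1 kb through 3585 bp at 1 to 5 kb and 10808 bp at 5 to 50 kb to 89523.5 bp over 50 kb. Of the 248 proximal members, 186 had a region within 500 bp, and 107 (43.1%) had one within 2 kb on both sides. Of the 294 distal members, only 12 (4.08%) had a region within 500 bp, 2 were flanked on both sides, and 80 (27.2%) lay over 50 kb from the nearest region. Over all 631 members, 125 were flanked on both sides within 2 kb, 159 on one side and 347 on neither, and 98 had no region within 50 kb of their midpoint.

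**Figure D1:**
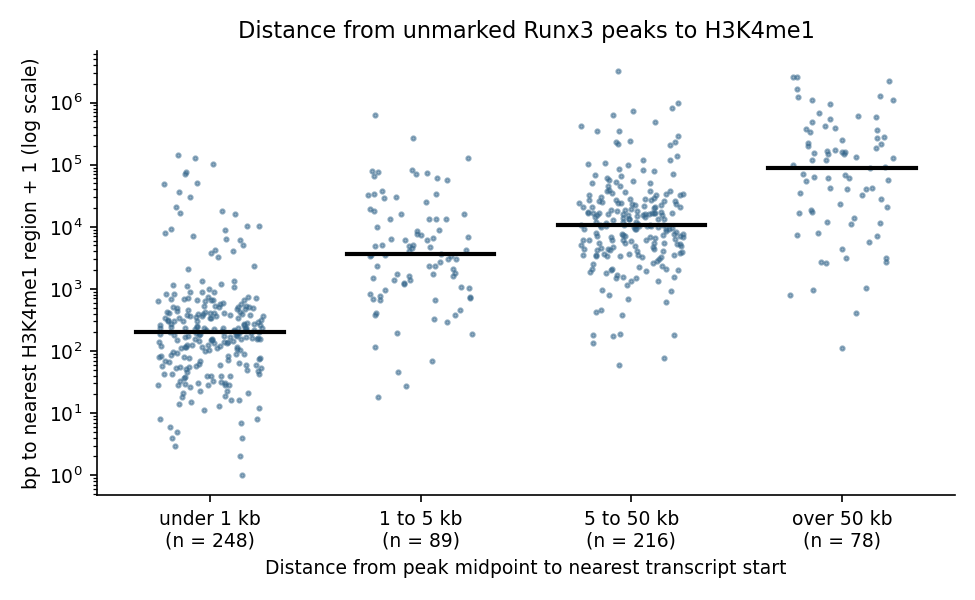
Distance in bp from each of the 631 unmarked autosomal Runx3 peaks to the nearest H3K4me1 region, plus 1, on a log axis, by distance of the peak midpoint from the nearest TSS. Each point is a peak and the bar is the median, which rose from 204 bp under 1 kb to 89523.5 bp over 50 kb.

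The members closest to the limit of the class were the peaks at Moap1 and Ubr7, which abutted a region at 0 bp, and at Ralgapa2 (1 bp), Fbxo34 (2 bp), Rpl31 (3 bp) and Apoh and Prkca (3 bp). Just outside it, peaks at Trim27 and at Fastkd5 and Ubox5 overlapped by 1 bp each and the peak at Med26 by 2 bp. Within 10 bp of the limit lay 10 members and 10 overlapping peaks, and within 100 bp 82 members and 112 overlapping peaks. Of the 5 farthest members 4 were intergenic. A peak on chromosome 6 from 76551328 to 76551775 was 3232555 bp from any region, and the next peak, 2715724 bp along the chromosome, was 2605416 bp from one. Peaks nearest to SNORA17 and Hnf4g and a peak within Dpp10, a potassium channel subunit gene, were 2540313, 2217177 and 1648749 bp away. The Hnf4g peak begins in unsequenced bases at the edge of the assembled part of its chromosome. No region could be called in such bases, so its distance was measured on the other side alone.

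The classes of TSS distance were then compared. Under 1 kb lay 248 of 631 unmarked peaks (39.3%) and 39.0% of overlapping peaks, a difference of 0.325 percentage points with an interval of −3.49 to 4.27. At 1 to 5 kb the shares were 14.1% against 15.9% (difference −1.77 points, interval −4.34 to 1.22), and at 5 to 50 kb 34.2% against 36.6% (−2.36 points, −6.04 to 1.51). Over 50 kb the share was 12.4% (78 peaks) against 8.56%, a difference of 3.80 points with an interval of 1.41 to 6.63. With 1 TSS per protein-coding gene the difference over 50 kb was 0.877 points (−2.16 to 4.26), and among peaks wider than the median of the list it was −1.59 points (−4.83 to 4.24). Requiring that unmarked peaks had no region within 500 bp gave a share under 1 kb of 14.8%, a difference of −24.2 points from the 39.0% of overlapping peaks, and a difference over 50 kb of 9.53 points (6.11 to 13.5).

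By annotation, the midpoints of 314 unmarked peaks (49.8%) were intergenic, 224 (35.5%) intronic, 68 (10.8%) in a UTR or noncoding exon and 25 (3.96%) in a coding exon. Intergenic midpoints were more frequent than in overlapping peaks (41.5%, difference 8.23 points, interval 4.26 to 12.2) and intronic ones less frequent (42.0%, difference −6.51 points, −10.2 to −2.61). Among distal members alone 56.8% were intergenic, against 47.4% of distal overlapping peaks.

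Base composition differed between the proximal and distal classes, which were set by TSS distance. The plot of CpG content against GC content shows this for unmarked and overlapping peaks alike. Proximal members had a median GC content of 61.8% against 57.9% in proximal overlapping peaks, a difference of 3.92 points with an interval of 2.72 to 5.13 (Price-Bonett). Distal members had a median of 45.7% against 47.2%, a difference of −1.53 points (−2.36 to −0.688). A peak was called CpG-island-like when its GC content was at least 50% and its observed over expected CpG ratio at least 0.6. This held for 208 of 248 proximal members (83.9%, interval 78.8 to 87.9%) and for 69.8% of proximal overlapping peaks, a difference of 14.0 points (8.82 to 18.3). Among distal members it held for 5 of 294, against 2.17% of distal overlapping peaks. The difference was not kept away from regions. Among proximal members with no region within 500 bp, 62.9% were CpG-island-like, a difference of −6.92 points from overlapping peaks with an interval of −19.4 to 4.08.

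**Figure D2:**
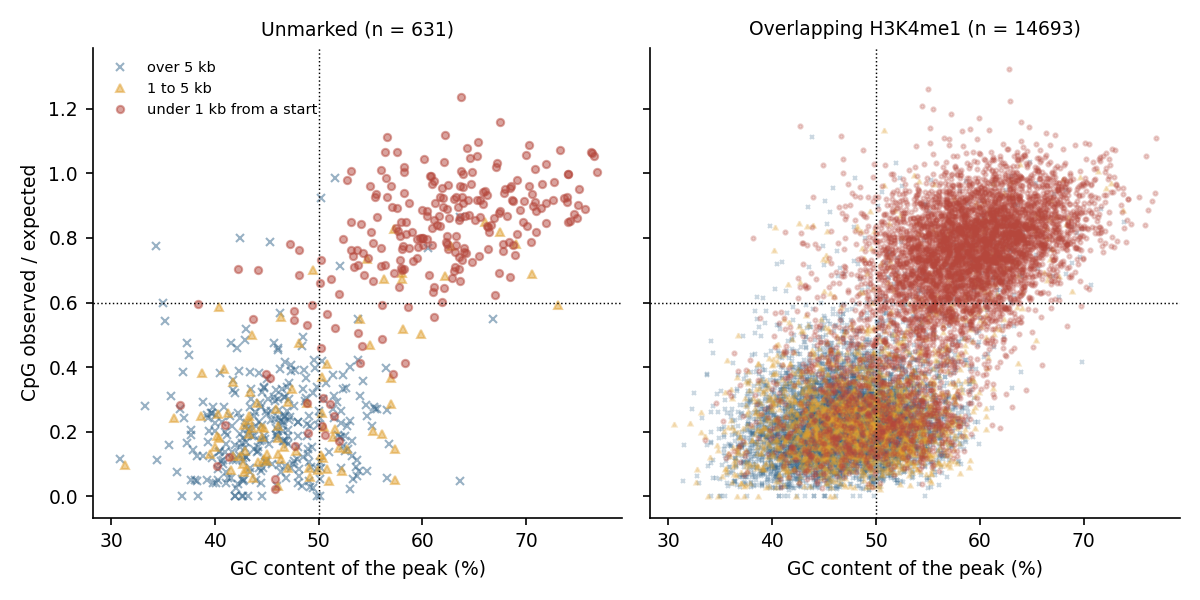
GC content in % (x axis) and observed over expected CpG ratio (y axis) of each of 631 unmarked (left) and 14693 overlapping (right) autosomal Runx3 peaks, coloured by distance of the midpoint from a TSS. Dotted lines mark the limits of the CpG-island-like class at 50% and 0.6, and 208 of 248 proximal unmarked peaks lie in the upper right quadrant.

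A protein-coding start lay within 1 kb of the midpoint at 235 of 248 proximal members (94.8%), against 95.1% of proximal overlapping peaks (difference −0.318 points, interval −3.88 to 1.92). The 208 CpG-island-like members lay a median of 169 bp from the nearest H3K4me1 region and the other 40 a median of 1013 bp. The 5 widest proximal members were at Cbx3 and Hnrnpa2b1 (1592 bp), which encode a heterochromatin protein and a pre-mRNA binding protein, Hnrnpk and Rmi1 (1362 bp), Txnip and Gm15441 (1290 bp), Fem1a (1269 bp), and Eapp with a U1 gene (1243 bp). The Cbx3 and Hnrnpa2b1 peak, at chr6:51418804-51420395, lay in a gap of 2445 bp between regions, 111 bp from one and 742 bp from the other. Txnip encodes a regulator of redox state and glucose uptake, and its peak was 183 and 1276 bp from the flanking regions.

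Many proximal overlapping peaks touch a region only at their side, and 1738 of them had their midpoint outside every region. Compared with these edge-overlapping peaks, proximal members were less often CpG-island-like (83.9% against 92.5%, difference −8.59 points, interval −13.8 to −4.32), so the direction depended on the comparison group. GC content was 61.8% against 60.7% at the median (difference 1.13 points, −0.0985 to 2.36). Starts on both strands were found at 42 proximal members (16.9%, 12.8 to 22.1%), against 29.7% of edge-overlapping peaks (−12.8 points, −17.5 to −7.24) and 19.2% of all proximal overlapping peaks (−2.22 points, −6.50 to 3.04). Members with starts on both strands included the shared promoters of Cbx3 and Hnrnpa2b1, of Elf1 and Wbp4, and of Polr2i and Tbcb. The midpoint lay a median of 61.5 bp upstream of the TSS in members and 17 bp upstream in edge-overlapping peaks.

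The gap between the H3K4me1 regions on either side of the midpoint was wide at proximal members, with a median of 6402 bp (interval 2966 to 14958 bp) against 591.5 bp at edge-overlapping peaks. This width follows in part from the choice of the members and is given as a description. To see on which side the marked regions lay, promoters with protein-coding starts on a single strand were oriented by transcription. The median distance from midpoint to the nearest region was 6786 bp upstream and 665 bp downstream at 193 such members, and 158 bp upstream and 262 bp downstream at 1199 edge-overlapping peaks. The upstream region was the nearer at 59 of the 193 members (30.6%, 24.5 to 37.4%) and at 745 of the 1199 edge-overlapping peaks (62.1%, 59.4 to 64.8%). Both groups were defined by their overlap with these same regions. The distances and the contrast between the groups therefore follow in part from that choice and are given as a description. A region lay within 2 kb downstream at 165 members (85.5%) and within 2 kb upstream at 79 (40.9%). In the plot of upstream against downstream distances many members form a band with a far upstream region and a near downstream one.

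**Figure D3:**
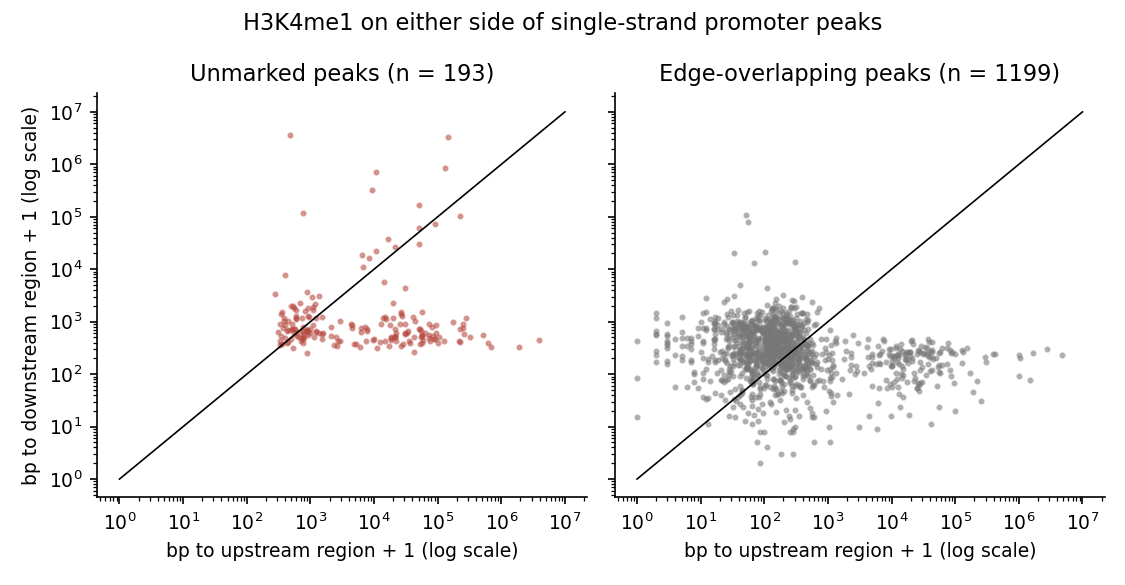
Distance in bp, plus 1, from the peak midpoint to the nearest H3K4me1 region upstream (x axis) and downstream (y axis) of transcription at promoters with protein-coding starts on 1 strand, on log axes, for 193 unmarked and 1199 edge-overlapping peaks. Points above the line have the upstream region nearer, as 59 unmarked and 745 edge-overlapping peaks did.

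Genes with an unmarked peak at their start were counted by list. Of 5956 protein-coding genes with an autosomal Runx3 peak under 1 kb from a start, 255 (4.28%) had an unmarked one. For cytosolic ribosomal proteins the count was 5 of 54 (9.26%, interval 4.02 to 19.9%), for replication-dependent histones 4 of 35 (11.4%, 4.54 to 26.0%), for lymphoid transcription factors 4 of 24 (16.7%, 6.68 to 35.9%) and for the ubiquitin pathway 7 of 110 (6.36%, 3.12 to 12.6%). The 4 histone genes shared 2 peaks but were counted apart, so their interval is too narrow. The lists were not independent of earlier results, so the shares and intervals are a description and no list is set apart from 4.28%. The counts were 3 of 126 for zinc finger genes, 2 of 64 for RNA polymerase and general transcription, and 1 each for splicing factors (of 34), translation factors (of 54), cell cycle genes (of 50), cytokine receptors (of 21) and NK cell receptors (of 15). Some counted genes also had an overlapping Runx3 peak at a start. They were 2 ubiquitin pathway and 2 zinc finger genes, and 1 each of the lymphoid transcription factors, histones, RNA polymerase and cell cycle lists. There were 0 unmarked peaks at 45 respiratory chain, 43 mitochondrial ribosome, 21 proteasome, 13 cytotoxic effector, 4 T cell and 1 myeloid genes with a Runx3 peak, and no B cell identity gene had a Runx3 peak at its start.

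The 4 lymphoid transcription factors were Elf1, an ETS factor, Eomes, Id2, an inhibitor of E proteins needed for NKC development, and Notch1, a receptor that acts as a transcriptional regulator once cleaved. Id2 had 2 unmarked peaks, from 25779718 to 25780403 and from 25780449 to 25781011 on chromosome 12, both within a gap of 2411 bp between regions. The Eomes peak, at chr9:118386832-118387552, was 319 and 1910 bp from the regions at its sides and was not CpG-island-like, with a GC content of 51.6% and a CpG ratio of 0.523. The Notch1 peak lay in a gap of 1121 bp and the Elf1 peak in one of 1421 bp. All 5 of these peaks had regions within 2 kb on both sides.

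The ribosomal protein genes were Rpl31, Rpl37a, Rpl7, Rplp0 and Rps29, which encode constituents of the large subunit except for Rps29. The Rpl31 peak filled a gap of 689 bp, with regions 3 and 22 bp away, and the Rps29 peak one of 739 bp. The Rpl37a peak had a region 25 bp away on one side and 125831 bp away on the other. The histone genes Hist1h2ac and Hist1h2bc shared a peak in a gap of 1058 bp, and Hist2h2bb and Hist2h3b shared one in a gap of 4580 bp. In the ubiquitin pathway the members were Fbxo33, Fbxo34, Rnf103, Rnf170, Rnf19b, Usp1 and Usp38, with gaps from 926 bp at Rnf170 to 52985 bp at Fbxo34. The NK cell receptor gene with an unmarked peak was Klrc3 of the NKG2 family, where only 13.0% of 40-base windows, the length of the reads, occurred once in the genome and 1 near-identical copy was found. The share of such windows was 75.4% at Rps29, 78.6% at Rpl31, 80.7% at Rpl37a, 89.2% at Rplp0 and 100% at Rpl7. It was 65.1% at the peak of Hist1h2ac and Hist1h2bc and 99.2% at that of Hist2h2bb and Hist2h3b. Under 90% was found in 10.1% of all proximal members. Il3ra, which encodes a cytokine receptor chain, had an unmarked peak 49661 bp from any region.

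Sequence matches were counted in the central 200 bp. In distal members a RUNX match was present in 195 of 294 peaks (66.3%, 60.7 to 71.5%), against 74.8% of distal overlapping peaks (difference −8.50 points, interval −14.2 to −3.23). Over all autosomal peaks it was present in 69.1%, and in 24.8% of 11968110 consecutive genome windows of 200 bp. The difference was −2.94 points (−18.6 to 8.82) among peaks wider than the median of the list, and median widths were 619 bp in distal members and 823 bp in distal overlapping peaks. In proximal peaks a match was present in 59.7% of members and 61.5% of overlapping peaks (−1.86 points, −8.19 to 4.19). The variants were distributed unequally there, with TGTGGT in 15.7% against 21.5% (−5.82 points, −9.97 to −0.665) and TGCGGC in 25.8% against 20.4% (5.36 points, 0.201 to 11.2). Of the 40 proximal members that were not CpG-island-like, 16 (40.0%) held TGTGGT, compared with 23 of 208 (11.1%) that were.

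The CTCF consensus, a 12-letter sequence searched on both strands, was present in 33 of 294 distal members (11.2%, 8.10 to 15.3%) and in 53 of 6634 distal overlapping peaks (0.799%, 0.611 to 1.04%). The difference was 10.4 points (7.30 to 14.5). In all autosomal peaks the share was 0.998% and in the genome windows 0.112%. At 1 to 5 kb from a TSS 4 of 89 members held it (4.49%, against 0.815%), and among proximal members 3 of 248 (1.21%, against 0.716%, difference 0.494 points, −0.343 to 2.79). Of the 33 distal members with a CTCF match, 30 (90.9%, 76.4 to 96.9%) also held a RUNX match, compared with 165 of 261 without one (63.2%, 57.2 to 68.8%). In distal overlapping peaks the corresponding shares were 40 of 53 (75.5%) and 74.8%. The contrast among members mixes distances to H3K4me1. Of the 80 distal members over 50 kb from a region, 1 held a CTCF match and 37 (46.2%) a RUNX match. In 10 of the 33 a RUNX match lay within 10 bp of the CTCF match, and in 0 did they overlap. Among the 53 distal overlapping peaks with a CTCF match, these counts were 6 and 1. By their letters the RUNX and CTCF sequences can share end bases only, so the counts of overlaps say little about the peaks. The 33 peaks were a median of 10902 bp from a region and the other 261 a median of 16693 bp.

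The CTCF-holding members named here were chosen after their values were seen. The peak within Clip2 at chr5:134970036-134970616 held 3 RUNX matches, the nearest 4 bp from the CTCF match, and was 1347 bp from an H3K4me1 region. The peak within Lrig3, also with 3, was 16104 bp from one. The peaks within Pik3cb, which encodes a catalytic subunit of PI3 kinase, and Acox3, a peroxisomal oxidase gene, held 1 RUNX match each, 3 and 5 bp from the CTCF match, and were 26625 and 10902 bp from a region. No CTCF binding was measured in these cells, so a match is a description of the sequence.

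Other sequences were less frequent in distal members. The AP-1 sequence TGAGTCA was present in 7 of 294 (2.38%) against 7.55% of distal overlapping peaks (−5.17 points, −6.56 to −2.64), the ETS core CGGAAG in 3.06% against 7.16% (−4.10 points, −5.68 to −1.38), the SP1 sequence GGGCGG in 2.72% against 6.56% (−3.84 points, −5.31 to −1.22) and the T-box sequence TCACACC in 5.10% against 8.79% (−3.69 points, −5.79 to −0.474). The NF-Y sequence CCAAT was more frequent, at 24.5% against 18.4% (6.05 points, 1.39 to 11.4), but over the whole peak, where members are narrower, it was less frequent, at 57.1% against 63.1% (−5.99 points, −11.8 to −0.336). For NRF1 (GCATGCG), YY1 (AAGATGG) and CRE (TGACGTC) the intervals of the difference included 0 in both proximal and distal peaks. In proximal members the intervals for ETS (22.6% against 27.6%, −5.03 points, −9.93 to 0.689) and SP1 (49.6% against 43.4%, 6.22 points, −0.0786 to 12.5) also included 0. Against edge-overlapping peaks, however, both were less frequent in members, ETS at 22.6% against 34.8% (−12.2 points, −17.4 to −6.16) and SP1 at 49.6% against 57.8% (−8.17 points, −14.8 to −1.56).

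**Figure D4:**
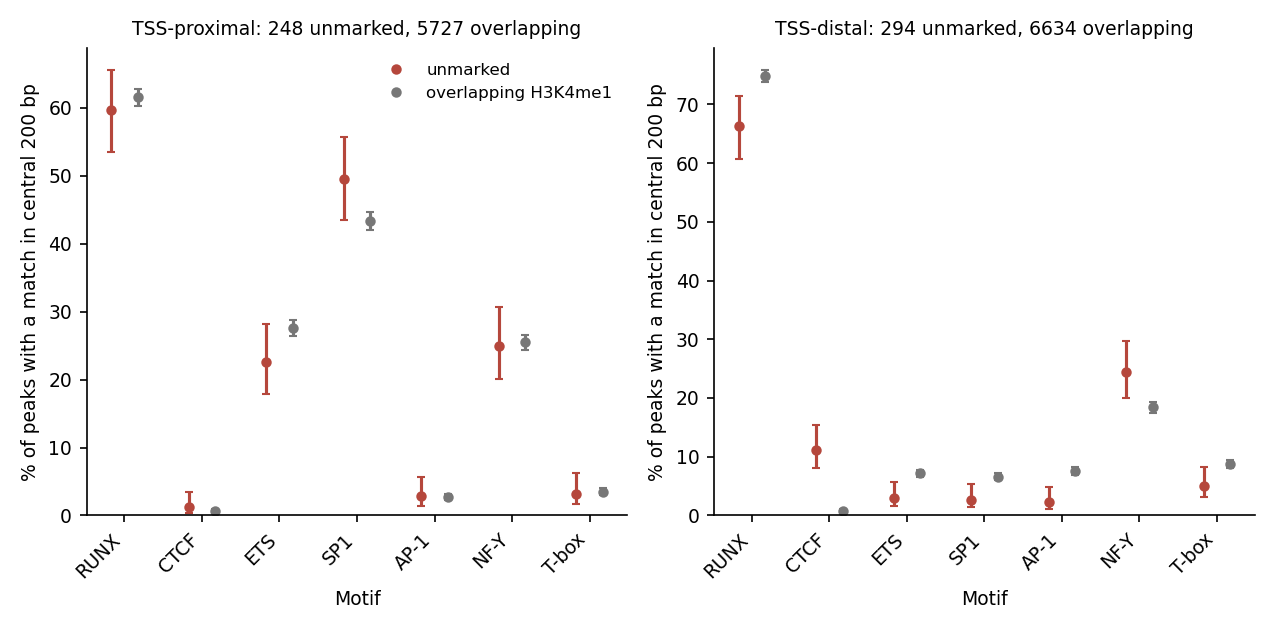
Share in % of peaks with at least 1 match to each consensus in the central 200 bp, for unmarked and overlapping autosomal Runx3 peaks at proximal (left) and distal (right) positions, with 95% Wilson intervals for counting error over peaks. At distal positions the CTCF share was 11.2% against 0.799%, and the AP-1 share 2.38% against 7.55%.

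Runx3 peaks near other Runx3 peaks were counted by the distance between midpoints. Another peak lay within 10 kb of 173 members (27.4%) and of 47.7% of overlapping peaks, a difference of −20.3 points (−23.7 to −16.6). By class, 34 of 294 distal members (11.6%) had such a neighbour against 3316 of 6634 overlapping peaks (−38.4 points, −41.8 to −34.1), as did 46.1% of members at 1 to 5 kb against 65.4% (−19.3 points, −29.4 to −8.80) and 39.5% of proximal members against 37.8% (a difference of 1.68 points whose interval included 0). Compared with edge-overlapping peaks, proximal members more often had a neighbour, at 39.5% against 28.0% (11.6 points, 5.29 to 18.1). This direction was opposite to that of the difference over all members. Over all members the difference was −11.8 points (−19.9 to −2.89) among peaks wider than the median of the list, and −4.14 points (−6.41 to −1.42) for neighbours within 2 kb. Among the 34 distal members with a neighbour, the neighbour was itself unmarked in 2. Runx3 peaks in the same H3K4me1 region all overlap it, so the neighbour shares depend in part on how the members were chosen.

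Distal members were further described by their distance to H3K4me1. Of the 73 within 5 kb of a region, 54 (74.0%, 62.9 to 82.7%) held a central RUNX match, as did 104 of the 141 at 5 to 50 kb (73.8%, 65.9 to 80.3%) and 37 of the 80 over 50 kb (46.2%, 35.7 to 57.1%). The CTCF consensus was present in 9, 23 and 1 of these peaks, or 12.3%, 16.3% and 1.25%. Another Runx3 peak lay within 10 kb of 30.1%, 7.80% and 1.25%, and the median GC content was 47.0%, 46.0% and 42.7%. The 80 peaks farthest from H3K4me1 made up 43 of the 99 distal members with no central RUNX match. Their share with a match was above that of genome windows (24.8%).

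**Figure D5:**
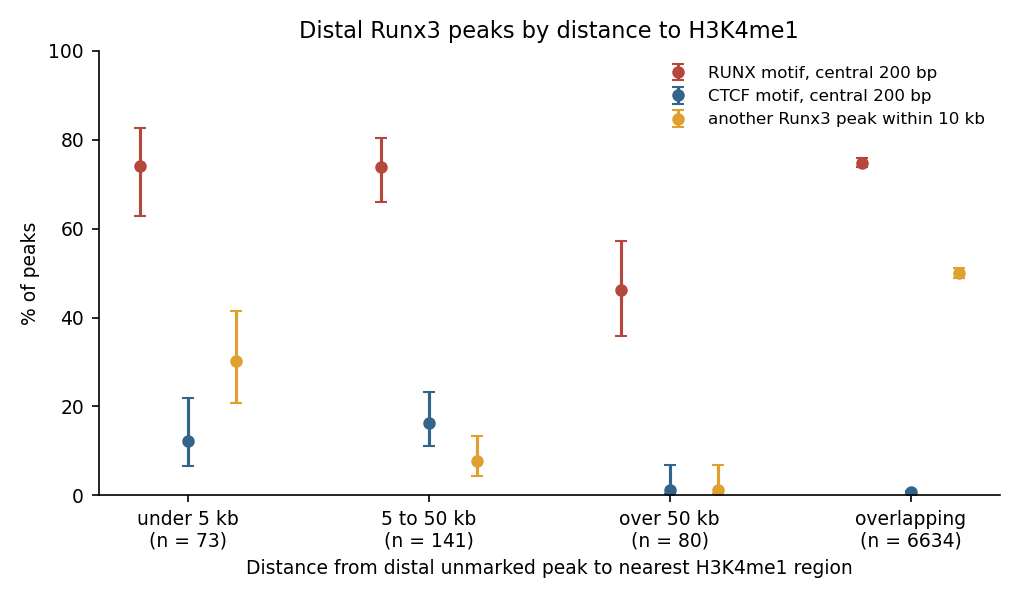
Share in % of distal unmarked peaks with a central RUNX match, a central CTCF match or another Runx3 peak within 10 kb, by distance to the nearest H3K4me1 region, beside 6634 distal overlapping peaks. Bars are 95% Wilson intervals for counting error over peaks, and the RUNX share was 46.2% over 50 kb from a region and 74.8% in overlapping peaks.

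Some unmarked peaks held many RUNX matches. At least 5 matches in the central 200 bp were found in 19 of 631 members (3.01%, 1.94 to 4.65%) and in 74 of 14693 overlapping peaks (0.504%, 0.401 to 0.632%), a difference of 2.51 points (1.42 to 4.15). In 12 of the 19 members, and in 17 of the 74 overlapping peaks, under 90% of 40-base windows were unique. Over 5 kb from a TSS the highest numbers were at Ywhah (11), Hs6st1 (11), 1700010B08Rik (10), Tdrd1 (10) and Dynlrb1 (9), with 66.9%, 84.4%, 75.3%, 39.7% and 76.1% of unique windows. A narrower peak in Tcea3, named after its values were seen, also held 9, and all of its windows were unique. Among proximal members the most were at Tef (5), a PAR bZIP factor gene, Tmem17 (5), Lcp2 (4), Arid1b (4), which encodes a subunit of the BAF remodelling complex, and Gm10044 (4). At 1 to 5 kb they were at Adam30 (8), Trafd1 (5), Litaf (4), Gng2 (3) and Lypla1 (3). In the Tef peak 61.6% of windows were unique. The central matches at Ywhah, Adam30 and Lcp2 lay in repetitive sequence.

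The mappability of the members differed in general. In 86 of 631 (13.6%) under 90% of windows were unique, against 4.60% of overlapping peaks (9.03 points, 6.55 to 11.9), and the difference was present in proximal (10.1% against 3.61%) and distal (14.6% against 5.08%) peaks. Near-identical copies, of at least 95% identity over 50% of the peak, were found for 6 members (0.951%) and 0.497% of overlapping peaks (0.454 points, −0.0759 to 1.57). At 90% identity the shares were 3.17% and 1.02% (2.15 points, 1.03 to 3.83). The part of mappability in the absence of an H3K4me1 call was not tested.

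The widest members were described last. At 1 to 5 kb these were Crlf2 (2102 bp), which encodes a cytokine receptor chain, Arid5b (1661 bp), Spry2 (1650 bp), an inhibitor of receptor tyrosine kinase signalling, 1700012B15Rik (1428 bp) and Klf13 (1203 bp), a zinc finger regulator of lymphocytes. The Crlf2 peak was CpG-island-like, lay 1567 bp from another Runx3 peak and was 130473 bp from the nearest region, while the Arid5b, Spry2 and Klf13 peaks were 68, 454 and 410 bp from one. Over 5 kb, the widest peak (7516 bp, nearest to 4930440I19Rik) was 20932 bp from a region, followed by peaks nearest to Ceacam15 (2894 bp), Gm10232 (2286 bp) and a U1 gene (1981 bp) and by the Dynlrb1 peak (1207 bp). The Gm10232 peak held 22 RUNX matches over its length and the Dynlrb1 peak 39.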

How the data were processed

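ChIP-seq was performed on resting spleen NKC with anti-Runx3, anti-H3K4me1 or NIS (1 sample each). According to labels and methods, the authors aligned 40 bp reads to mm9 with ELAND, kept unique alignments, joined the reads of their biological repeats and called regions with MACS, taking NIS as control. The submitters' processing notes name CASAVA 1.7. The deposited lists hold start and end coordinates in bp (unit other) without scores, so depth and signal at a region are unknown, and 0 columns of other samples were present. The assignment of each list to its antibody follows the list's name.

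Coordinates were printed 1-based on mm9, with GENCODE vM1 TSSs of all transcripts (86803 positions). Unmarked peaks shared 0 bp with every region, and distances were counted edge to edge. Sequences were read from mm9 (pysam 0.24.0), peak sequences were extracted with bedtools 2.31.1, and copies were searched with minimap2 2.31-r1302. Intervals were Wilson for shares, Newcombe for differences of shares, Price-Bonett for differences of medians and order statistics for medians, all at 95% and computed with Python 3.11.15 and SciPy 1.17.1 after the code was tested on simulated data. No p-values were computed, since each antibody had 1 list. Peaks on chromosome X were left out of the main comparisons, and no other peak was filtered out.

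The members, gene lists and named genes were chosen with earlier results of these data known. Named peaks were, in each TSS class, the 5 widest and the 5 with most central RUNX matches, the 5 nearest to and farthest from H3K4me1, and all with a start of a listed gene. The CTCF comparison, the orientation of promoters and the counts of 5 or more RUNX matches were added after the data were seen.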

Additional observations from a re-analysis of the deposited data

How the results depend on the processing

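For 18 results, 107 alternatives were run, 7 of them added after the data were seen, and 70 kept the direction and the side of 0 on which the interval lay, or stayed within the interval of the reported value. No paired analysis was possible because each antibody had 1 sample and 1 list. The differences in neighbours over all members and in the distal CTCF share kept their direction under every alternative run on them. Their intervals excluded 0, although the difference in neighbours ranged from −25.3 to −4.14 points. The alternatives for neighbours were not run by TSS class. In proximal members the difference in neighbours was 1.68 points, with an interval that included 0. The causes of the changes below were not tested.

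Counting peaks with under 100 shared bp as unmarked moved the unmarked share from 4.12% to 4.85%, the median distance to a region to 1136 bp and the proximal gap to 2950 bp. The TSS differences became 8.81 (under 1 kb), −3.73 (1 to 5 kb), −7.09 (5 to 50 kb) and 2.01 points (over 50 kb), the last with an interval that included 0, and the distal CpG-island-like difference became 0.191 points.

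Requiring no region within 500 bp gave a share of 2.74%, a median distance of 10808 bp and a proximal gap of 28307 bp. The differences became −24.2, 2.22, 12.5 and 9.53 points in order of TSS distance, −1.12 points for proximal GC content, −6.92 for proximal CpG-island-like peaks, 6.21 for proximal RUNX matches, −14.3 for starts on both strands and 0.694 for near-identical copies.

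Keeping peaks wider than the median gave a share of 1.60% and a median distance of 473 bp. The TSS differences were 11.2, 0.577, −10.2 and −1.59 points in order of distance. Distal GC content differed by −1.11 points, RUNX matches by 2.55 (proximal) and −2.94 points (distal), and starts on both strands by 1.78 points.

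Protein-coding starts gave −3.64 points at 1 to 5 kb, 0.143 at 5 to 50 kb and −4.86 for starts on both strands, and 1 start per protein-coding gene gave 0.0245 at 5 to 50 kb and 0.877 over 50 kb. Including chromosome X gave 0.117 points for distal CpG-island-like peaks, whole peaks −6.03 points for proximal RUNX matches, and 90% identity 2.15 points for copies. Without scores, weak peaks could not be set apart, and without replicate lists the spread between experiments is unknown.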
